A study of Mus musculus with 8 samples.

Results

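Renal expression of 8 genes of vitamin D metabolism and phosphate transport was examined in diabetic mice given recombinant FGF4 (rFGF4) or vehicle. The genes were the vitamin D enzymes Cyp24a1, Cyp27b1 and Cyp2r1, the vitamin D receptor Vdr, and the sodium phosphate cotransporters Slc34a1, Slc34a3, Slc20a1 and Slc20a2. They were picked by name from 55401 genes in the table, and 7 of them passed a filter of at least 0.5 FPKM in 4 or more libraries, which left 15150 genes. FPKM counts fragments relative to transcript length and to the mapped fragments of the library, so levels can be set side by side between genes. The choice of these genes was made with the rFGF4 and vehicle values already known, and their difference between groups is therefore given as a description without a test.

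Kidney RNA came from 4 rFGF4 mice, numbered 1, 2, 3 and 5, and 4 vehicle mice, numbered 2, 3, 4 and 5, with 1 library per mouse. The labels name the tissue as kidney, and the part of the kidney taken for sequencing is not stated there. The rFGF4 of the study is a truncated form of the growth factor FGF4 that lacks mitogenic activity, injected repeatedly into the peritoneum over several weeks. The vehicle was buffered saline. All 8 mice were diabetic males, and no library of a healthy mouse was compared here. The labels give the genotype as the db/db model, in which the leptin receptor is defective, whereas the paper's text names diabetes induced by streptozotocin, a toxin of insulin-producing cells, for the sequenced mice. The dose and the age of the sequenced mice are not given in the labels.

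Calcitriol, the active form of vitamin D, is made in steps. Cyp2r1 hydroxylates vitamin D mainly in the liver, Cyp27b1 completes calcitriol in the proximal tubule of the kidney, and Cyp24a1 inactivates it. Calcitriol binds the receptor encoded by Vdr, and Cyp24a1 is a classical target gene of that receptor. Phosphate filtered in the glomerulus is taken back in the proximal tubule, mostly by the brush border cotransporters encoded by Slc34a1 and Slc34a3. The bone hormone FGF23, with its co-receptor Klotho, is known to lower Cyp27b1, raise Cyp24a1 and withdraw both cotransporters from the brush border, and parathyroid hormone also withdraws the cotransporters. Slc20a1 and Slc20a2 encode phosphate carriers that are found in nearly all tissues.

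A pair of libraries stood apart. All 12 proximal tubule marker genes had their lowest value of the 8 libraries in rFGF4 mouse 1, where their summed level was 855 FPKM against 1815 to 3164 FPKM in the other mice. Markers of other segments were lower there in part, with 37.3 FPKM for 4 distal convoluted tubule markers against 105 to 254 FPKM and 187 FPKM for 6 collecting duct markers against 207 to 350 FPKM. Of the 4 distal markers, Trpm6 was instead highest in that mouse, and the sum of 5 loop of Henle markers, 992 FPKM, lay within the vehicle range of 898 to 1298 FPKM. The summed level of 6 macrophage markers was 479 FPKM in rFGF4 mouse 1 and 497 FPKM in vehicle mouse 5, against 27.5 to 204 FPKM in the rest. Vehicle mouse 5 also had the highest summed level of 6 lymphocyte markers, 22390 FPKM, nearly all from the antibody light chain gene Igkc. The 8 libraries were of like depth, between 0.908 and 1.13 times that of vehicle mouse 2, and mitochondrial genes took 27.4% ± 7.25 (SD, n = 4) of summed FPKM in rFGF4 mice and 33.5% ± 6.33 (SD, n = 4) in vehicle mice. Over all 15150 genes tested with limma, 0 passed a Benjamini-Hochberg adjusted p of 0.05, the smallest adjusted p was 0.918, and 700 genes, or 4.62%, had an unadjusted p under 0.05.

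The RefSeq promoter table used here, on GRCm38.p6, was matched for 6 of the 8 genes, Cyp24a1 and Slc20a2 being the other two. The 250 bases before the start are printed 5′ to 3′ on the gene's strand for the enzyme that makes calcitriol, for its receptor and for the cotransporters of the brush border, the genes whose levels set single mice apart below. Capitals mark matches to any of 6 short motifs searched on both strands: the nuclear receptor half-site AGGTCA, the TATA box TATAAA and its variant TATATA, the half-site GTTAAT of hepatocyte nuclear factor 1, the GC box GGGCGG and the E-box CACGTG.
Cyp27b1 (chr10:127047996-127048245, forward strand): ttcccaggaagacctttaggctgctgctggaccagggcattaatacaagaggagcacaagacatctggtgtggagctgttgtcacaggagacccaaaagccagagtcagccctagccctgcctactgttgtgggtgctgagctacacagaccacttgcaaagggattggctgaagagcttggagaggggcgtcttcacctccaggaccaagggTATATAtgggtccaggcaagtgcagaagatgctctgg
Vdr (chr15:97908297-97908546, reverse strand): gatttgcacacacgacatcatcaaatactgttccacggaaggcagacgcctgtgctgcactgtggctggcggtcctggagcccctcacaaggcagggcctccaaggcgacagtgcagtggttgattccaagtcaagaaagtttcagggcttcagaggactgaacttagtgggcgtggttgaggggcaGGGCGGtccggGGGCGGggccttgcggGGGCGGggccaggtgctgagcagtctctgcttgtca
Slc34a1 (chr13:55399398-55399647, forward strand): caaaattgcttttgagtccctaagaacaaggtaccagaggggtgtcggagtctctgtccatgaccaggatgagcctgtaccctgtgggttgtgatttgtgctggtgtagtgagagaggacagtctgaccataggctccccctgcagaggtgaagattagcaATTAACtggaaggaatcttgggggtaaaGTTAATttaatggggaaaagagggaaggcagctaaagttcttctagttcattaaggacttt
Slc34a3 (chr2:25234235-25234484, reverse strand): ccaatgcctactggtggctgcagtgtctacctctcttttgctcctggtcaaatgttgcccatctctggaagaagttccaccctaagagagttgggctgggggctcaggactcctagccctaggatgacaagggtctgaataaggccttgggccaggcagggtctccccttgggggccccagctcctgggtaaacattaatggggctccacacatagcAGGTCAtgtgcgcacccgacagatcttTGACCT

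The Cyp27b1 window held TATATA from base -37, counted back from the start, a string found in 5.25% of 32851 promoter windows of the same length. The Vdr window held GGGCGG from bases -63, -52 and -36, and 32.7% of all windows held it on either strand. The Slc34a1 window held GTTAAT from base -61 and its reverse complement ATTAAC from base -89, against 6.43% of windows with either. The Slc34a3 window held AGGTCA from base -33 and TGACCT from base -6, against 14% of windows with either. The unprinted Slc20a1 window at the first of its 2 RefSeq starts held AGGTCA and CACGTG, which overlapped, as well as GGGCGG, and the Cyp2r1 window held none of the 6 motifs. CACGTG was present in 6.02% of all windows and TATAAA or its reverse complement in 12.4%. A match is a string of letters and not evidence of binding.

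Cyp24a1, the enzyme that inactivates calcitriol, was the member with the widest gap between the groups. Its gene (ENSMUSG00000038567) lies on the reverse strand of chromosome 2 at 170482708 to 170497145 in GENCODE M21 on GRCm38, the source of all gene positions here. Cyp24a1 stood at 41.8, 227, 345 and 23.7 FPKM in rFGF4 mice 1, 2, 3 and 5, and at 5.18, 3.82, 5.29 and 15.4 FPKM in vehicle mice 2, 3, 4 and 5. Every rFGF4 mouse lay above every vehicle mouse, but rFGF4 mice 2 and 3 were far above mice 1 and 5. The group means were 160 ± 154 and 7.43 ± 5.37 FPKM (SD, n = 4 each), a ratio of 21.5, and the log2 fold change on the log2(FPKM + 1) scale was 3.68 (SE 0.85). Ranked by group mean FPKM among the 15150 tested genes, Cyp24a1 was at place 5028 in vehicle mice and at place 240 in rFGF4 mice. In single libraries its place was 1127, 166, 90 and 1660 in rFGF4 mice 1, 2, 3 and 5. In vehicle mice 2, 3, 4 and 5 it was 6006, 7573, 5899 and 2983. Leaving out 1 mouse at a time gave log2 fold changes between 3.06, without rFGF4 mouse 3, and 4.33, without rFGF4 mouse 5. Its exons share bases with Pfdn4, a chaperone gene on the other strand that stood at 2.97 to 5.16 FPKM in rFGF4 mice and 2.77 to 3.76 FPKM in vehicle mice. The sources used here do not state strand-specific counting, and without it reads of overlapping genes on opposite strands cannot be told apart.

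Cyp27b1 (ENSMUSG00000006724, chromosome 10, 127048250 to 127053006, forward strand), the enzyme that completes calcitriol, split the rFGF4 group in the opposite way. Its levels were 16.8, 2.12, 1.72 and 11.0 FPKM in rFGF4 mice 1, 2, 3 and 5, and 8.70, 12.3, 21.5 and 17.9 FPKM in vehicle mice 2, 3, 4 and 5. Mice 2 and 3, the same animals that had the highest Cyp24a1, were the only ones of the 8 below 8.70 FPKM, while rFGF4 mice 1 and 5 lay within the vehicle range. Group means were 7.91 ± 7.30 FPKM with rFGF4 and 15.1 ± 5.69 FPKM with vehicle (SD, n = 4 each), and the log2 fold change was -1.23 (SE 0.63). It ran from -1.71 without rFGF4 mouse 1 to -0.81 without rFGF4 mouse 3.

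Put as a ratio, chosen after the values were seen, Cyp24a1 FPKM was 2.49, 107, 201 and 2.15 times Cyp27b1 FPKM in rFGF4 mice 1, 2, 3 and 5. In vehicle mice 2, 3, 4 and 5 the ratio was 0.596, 0.311, 0.246 and 0.863. The inactivating enzyme was thus the more abundant transcript in each of the 4 rFGF4 mice and the less abundant one in each of the 4 vehicle mice. In rFGF4 mice 1 and 5 the ratio exceeded that of the vehicle group through Cyp24a1, since their Cyp27b1 lay within the vehicle range. A correlation between the enzymes was not calculated, because rFGF4 mice 2 and 3 formed a separate cluster.

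**Figure D1:**
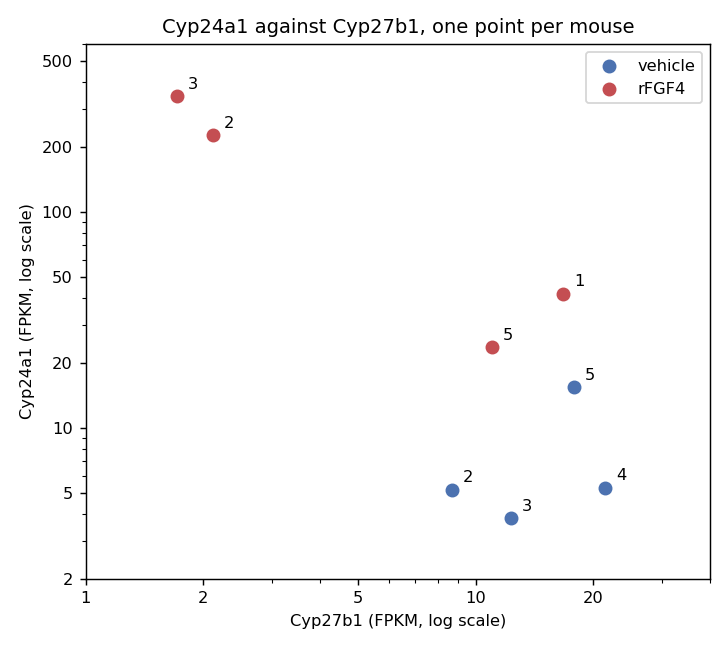
Cyp24a1 FPKM (vertical, log scale) against Cyp27b1 FPKM (horizontal, log scale), 1 point per mouse with its number, rFGF4 in red and vehicle in blue. The rFGF4 mice 2 and 3 sit alone at the upper left, with 227 and 345 FPKM of Cyp24a1 and 2.12 and 1.72 FPKM of Cyp27b1, while rFGF4 mice 1 and 5 share the Cyp27b1 range of the vehicle mice.

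Cyp2r1 (ENSMUSG00000030670, chromosome 7, 114549682 to 114562972, reverse strand), the hydroxylase best known from liver, was barely present. It was listed at 0.218, 0.404 and 0.241 FPKM in rFGF4 mice 1, 3 and 5 and at 0.190 and 0.0882 FPKM in vehicle mice 3 and 4. The table lists it at 0.0001, the value that stands for 0, in rFGF4 mouse 2 and vehicle mice 2 and 5. It failed the filter on low values, and no fold change was calculated.

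Vdr, the calcitriol receptor (ENSMUSG00000022479, chromosome 15, 97854425 to 97910630, reverse strand), followed the same animals as Cyp24a1 at its upper end. It stood at 22.6, 54.8, 91.6 and 36.0 FPKM in rFGF4 mice 1, 2, 3 and 5 and at 30.6, 21.3, 35.7 and 24.0 FPKM in vehicle mice 2, 3, 4 and 5. Mice 2 and 3 of the rFGF4 group were above the vehicle range, mouse 5 lay just above its top of 35.7 FPKM, and mouse 1 lay within it. The means were 51.2 ± 30.0 and 27.9 ± 6.49 FPKM (SD, n = 4 each), a ratio of 1.84, with a log2 fold change of 0.70 (SE 0.39). Without rFGF4 mouse 3 the log2 fold change was 0.36, and without rFGF4 mouse 1 it was 1.02.

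**Figure D2:**
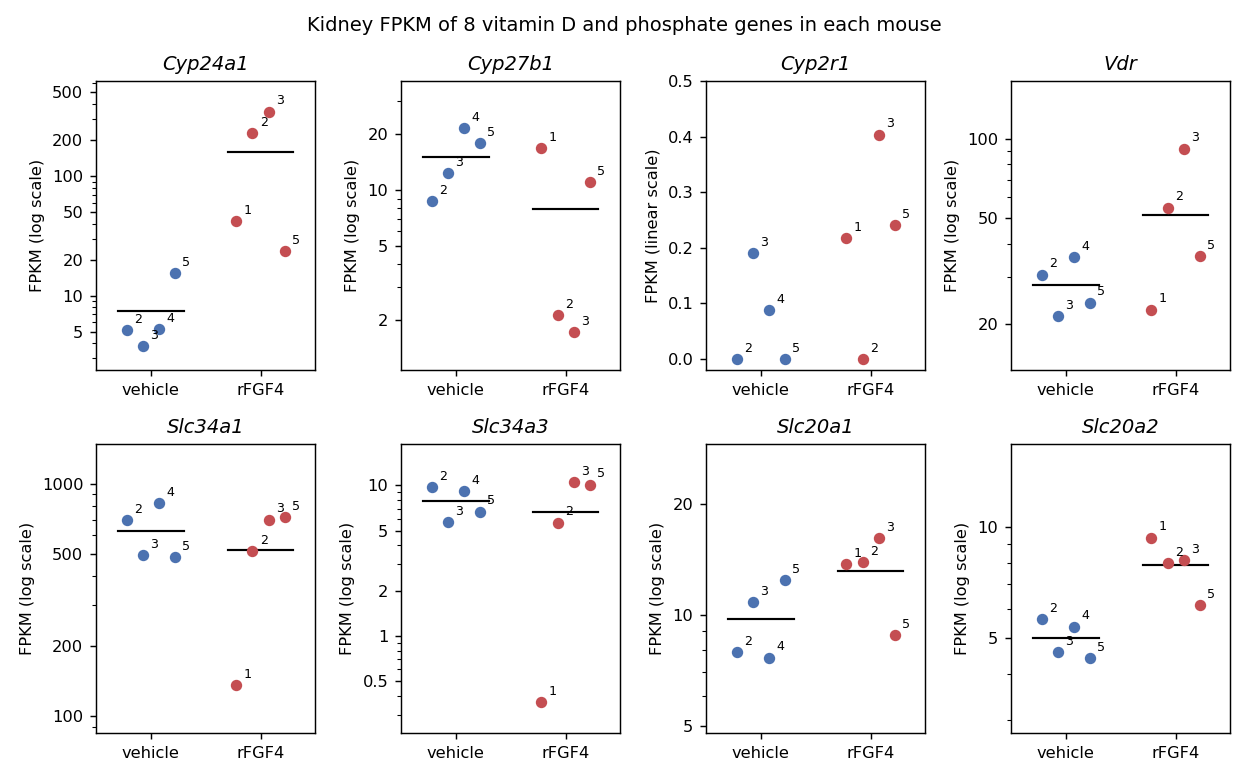
FPKM of the 8 genes in each mouse, 1 panel per gene, with the mouse number beside each point, vehicle in blue, rFGF4 in red and a black line at the group mean (not drawn for Cyp2r1). The axes are logarithmic except for Cyp2r1, which is linear because 3 mice are listed at 0.0001 FPKM. Red points lie above all blue points for Cyp24a1 and Slc20a2, and rFGF4 mouse 1 lies below all others for Slc34a1 and Slc34a3.

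Slc34a1, the main phosphate cotransporter of the brush border, was the most abundant member in every library (ENSMUSG00000021490, chromosome 13, 55398187 to 55415592, forward strand). Its levels were 136, 513, 700 and 718 FPKM in rFGF4 mice 1, 2, 3 and 5 and 697, 494, 824 and 483 FPKM in vehicle mice 2, 3, 4 and 5. Only rFGF4 mouse 1 lay outside the vehicle range, and it is the library in which all 12 proximal tubule markers were lowest. Means were 517 ± 270 and 624 ± 166 FPKM (SD, n = 4 each), and the log2 fold change of -0.49 was smaller than its SE of 0.52. Without rFGF4 mouse 1 it was 0.06. In RNA of bulk tissue, fewer proximal tubule cells and less RNA of these genes per cell cannot be told apart. The exons of Slc34a1 overlap Pfn3, a profilin gene on the other strand listed at 0.0001 FPKM in all 8 libraries.

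Slc34a3, the second brush border cotransporter, kept a similar proportion to Slc34a1 in all mice but the same one (ENSMUSG00000006469, chromosome 2, 25228898 to 25234364, reverse strand). It stood at 0.364, 5.66, 10.5 and 10.1 FPKM in rFGF4 mice 1, 2, 3 and 5 and at 9.71, 5.72, 9.19 and 6.68 FPKM in vehicle mice 2, 3, 4 and 5. Means were 6.66 ± 4.73 and 7.83 ± 1.93 FPKM (SD, n = 4 each), with a log2 fold change of -0.57 (SE 0.64) that became 0.13 without rFGF4 mouse 1. Slc34a1 FPKM was 66.7 to 90.7 times Slc34a3 FPKM in 7 mice and 374 times in rFGF4 mouse 1. In that mouse Slc34a3 was at 0.0465 of the vehicle mean, Slc34a1 at 0.218 and the summed proximal tubule markers at 0.348. The part of tubule cell content in these values was not tested.

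The ubiquitous carriers had higher means with rFGF4 than with vehicle, and in the rFGF4 group they varied least of the filtered members. In the vehicle group only Slc20a2 varied least, and the SD was 23.9% of the mean for Slc20a1 and 23.3% for Vdr. Slc20a2 (ENSMUSG00000037656, chromosome 8, 22476788 to 22569612, forward strand) stood at 9.37, 7.98, 8.14 and 6.14 FPKM in rFGF4 mice 1, 2, 3 and 5 and at 5.64, 4.58, 5.37 and 4.42 FPKM in vehicle mice 2, 3, 4 and 5. The groups did not overlap. Means were 7.91 ± 1.33 and 5.0 ± 0.595 FPKM (SD, n = 4 each), a ratio of 1.58, and the log2 fold change was 0.56 (SE 0.15), with a range of 0.48 to 0.66 when single mice were left out. Its exons share bases with Smim19 on the other strand, which stood at 13.4 to 18.2 FPKM with rFGF4 and 13.2 to 18.2 FPKM with vehicle.

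Slc20a1 (ENSMUSG00000027397, chromosome 2, 129198764 to 129211616, forward strand) stood at 13.7, 13.9, 16.1 and 8.80 FPKM in rFGF4 mice 1, 2, 3 and 5 and at 7.92, 10.8, 7.64 and 12.4 FPKM in vehicle mice 2, 3, 4 and 5. Mice 1, 2 and 3 of the rFGF4 group lay above all vehicle mice, and mouse 5 lay within their range. Means were 13.1 ± 3.09 and 9.70 ± 2.32 FPKM (SD, n = 4 each), with a log2 fold change of 0.40 (SE 0.22) that ran from 0.29 to 0.56 when single mice were left out. The genes 9830144P21Rik and Gm4430 overlap its exons on the other strand and did not exceed 1.02 FPKM in any library.

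Among the 7 filtered members, the groups were free of overlap with rFGF4 higher for 2, Cyp24a1 and Slc20a2, and with rFGF4 lower for 0. Over all tested genes the shares were 2.66% and 0.667%. The members were chosen on this contrast, so nothing is read from that count. Slc34a1 supplied 94.9% to 97.4% of the summed FPKM of the 4 cotransporters in 7 mice and 85.3% in rFGF4 mouse 1, where Slc20a1 and Slc20a2 together supplied 14.5% against 1.54% to 4.04% elsewhere.

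**Figure D3:**
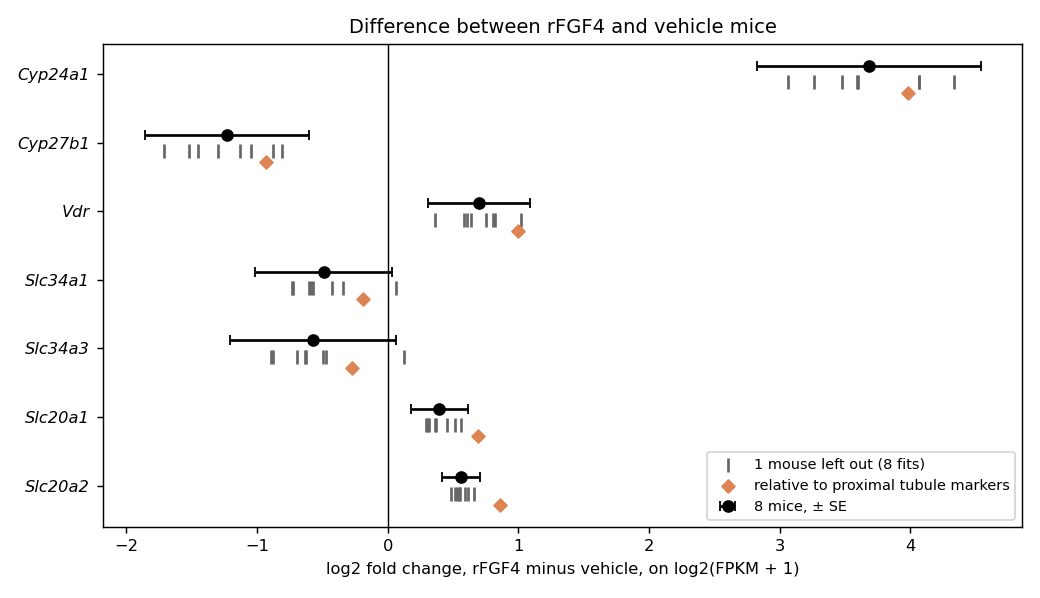
Log2 fold change of the 7 filtered genes, rFGF4 minus vehicle on log2(FPKM + 1), with the SE as a bar, the 8 fits that leave out 1 mouse as grey ticks and the value relative to proximal tubule markers as a diamond. Ticks fall on both sides of 0 for Slc34a1 (-0.73 to 0.06) and Slc34a3 (-0.90 to 0.13) and on 1 side for the other 5 genes.

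The diamonds in the plot of fold changes come from values centred on the mean log2 level of the proximal tubule markers, which moved the median over all tested genes from 0.0855 to 0.384. On that scale the log2 fold change was 3.98 for Cyp24a1, -0.93 for Cyp27b1, 1.0 for Vdr, -0.19 for Slc34a1, -0.27 for Slc34a3, 0.69 for Slc20a1 and 0.86 for Slc20a2, each to be read against 0.384. This centring adds the same amount to the fold change of every gene, so it leaves the order of the genes and their place against the median as they were. Without both rFGF4 mouse 1 and vehicle mouse 5, an alternative chosen after seeing the data, the log2 fold change was 4.45 for Cyp24a1, -1.61 for Cyp27b1, 0.96 for Vdr, -0.05 for Slc34a1, 0.07 for Slc34a3, 0.48 for Slc20a1 and 0.44 for Slc20a2.

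The vehicle mice alone give the order of the levels in the diabetic kidney, a comparison that did not use rFGF4. By mean FPKM it ran from Slc34a1 through Vdr, Cyp27b1, Slc20a1, Slc34a3, Cyp24a1 and Slc20a2 to Cyp2r1. The vehicle ranges of neighbours in this order did not overlap for Slc34a1 and Vdr or for Slc20a2 and Cyp2r1, and they overlapped for the other 5 neighbouring pairs. Within each mouse, Vdr exceeded Cyp27b1 and Cyp27b1 exceeded Slc20a1 in 4 of 4 vehicle mice. Slc20a1 exceeded Slc34a3 in only 2 of 4, Slc34a3 exceeded Cyp24a1 in 3 of 4, and Cyp24a1 exceeded Slc20a2 only in vehicle mouse 5, so the order of the means does not hold in most mice for that last pair. The SD was 72.3% of the mean for Cyp24a1 in the vehicle group, largely through vehicle mouse 5 at 15.4 FPKM, and 11.9% to 37.7% for the other 6 filtered members. In the rFGF4 group it was 96.7% for Cyp24a1 and 92.4% for Cyp27b1, but 23.6% for Slc20a1 and 16.9% for Slc20a2.

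Further genes of the pathway came from 5 lists of 59 genes, of which 53 were tested. The study called a gene at an unadjusted p below 0.05 together with a change of 1.5-fold or more upwards, or to 0.67 or less. By that threshold, 5 of the 53 were higher with rFGF4 and 0 were lower, against 1.09% and 0.442% of all tested genes. The lists were chosen with earlier results of these data known, so nothing is read from these counts. None of the 53 passed an adjusted p of 0.05 in limma, where the number over all genes was 0.

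Of 13 tested genes for vitamin D synthesis, transport and receptor partners, 1 passed the threshold. Gc, the vitamin D binding protein of plasma, stood at 211, 283, 187 and 167 FPKM in rFGF4 mice 1, 2, 3 and 5 and at 136, 181, 110 and 122 FPKM in vehicle mice 2, 3, 4 and 5. Its rFGF4 values exceeded the vehicle range in 3 of 4 mice, and its log2 fold change was 0.62 (SE 0.22, limma adjusted p = 0.918), a call that was lost in 7 of 15 alternatives. Of 5 liver marker genes, 1 also passed the threshold, Serpina1a, beside 1.09% of all tested genes called higher. Serpina1a encodes another plasma protein and stood at 264, 458, 244 and 217 FPKM against 152 to 225 FPKM. Its log2 fold change was 0.60 (SE 0.26). The defining liver gene Alb stood at 8.38 to 11.9 FPKM with rFGF4 and 2.62 to 15.6 FPKM with vehicle, and Ttr, which encodes the plasma protein transthyretin, at 24.6 to 95.9 FPKM and 2.25 to 65.2 FPKM, with a log2 fold change of 1.93 (SE 0.92) that did not pass. The remaining liver markers, Apoa2 and Cyp2e1, had log2 fold changes of -0.14 (SE 0.31) and -0.01 (SE 0.41). The part of the liver marker genes in the Gc values was not tested. Lrp2, which encodes the megalin receptor that takes the protein up from the filtrate, stood at 57.9 ± 23.9 and 52.4 ± 21.7 FPKM (SD, n = 4 each) and did not pass. Pdia3, a disulfide isomerase also described as a membrane binding protein for calcitriol, did not pass either, with a log2 fold change of 0.13 (SE 0.23). The groups did not overlap for Rxra, which encodes the usual dimer partner of the vitamin D receptor, with 16.1 to 25.1 FPKM against 13.7 to 15.0 FPKM, nor for the coactivator gene Snw1, with 6.23 to 7.47 FPKM against 3.66 to 5.53 FPKM. Both were singled out after their values were seen, and their fold changes were below the threshold. They and Etv5 were the 3 of the 53 genes without overlap in the higher direction, beside 2.66% of all tested genes.

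None of 8 tested target genes of the vitamin D receptor passed the threshold, and their median log2 fold change was 0.16 beside 0.0855 over all tested genes. S100g, a calcium-binding protein of the distal tubule, stood at 342, 1001, 670 and 1060 FPKM in rFGF4 mice 1, 2, 3 and 5 and at 769 to 1246 FPKM in vehicle mice. Calb1, the larger calbindin of the same segment, stood at 26.4, 111, 70.1 and 134 FPKM and at 77.3 to 139 FPKM. In mice 2 and 3, which had the highest Cyp24a1 and Vdr, both calbindins lay within their vehicle range in mouse 2 and below it in mouse 3. Trpv5, a calcium channel of the distal tubule singled out after its values were seen, stood at 13.5 and 8.14 FPKM in these mice and at 6.49 and 7.44 FPKM in rFGF4 mice 1 and 5, against 4.04 to 10.3 FPKM with vehicle, so that mouse 2 alone exceeded the vehicle range. In rFGF4 mouse 1, where both calbindins were lowest, the sum of the distal convoluted tubule markers was 0.21 of the vehicle mean, and the part of cell content in these values was not tested. Spp1, the secreted phosphoprotein osteopontin, was highest in rFGF4 mouse 1 at 10365 FPKM and ranged from 686 to 5291 FPKM in vehicle mice.

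None of 15 tested genes of hormonal phosphate control passed the threshold, and their median log2 fold change was 0.05. Fgf23 itself, a hormone made in bone, was listed at 0.0001 FPKM in 7 libraries and at 0.0271 FPKM in vehicle mouse 5. Kl, which encodes Klotho, stood at 8.90, 33.1, 40.8 and 54.4 FPKM in rFGF4 mice 1, 2, 3 and 5 and at 52.2, 38.6, 55.6 and 30.8 FPKM in vehicle mice 2, 3, 4 and 5, with mouse 1, low in proximal and distal tubule markers, alone outside the vehicle range. Pth1r, the receptor of parathyroid hormone, stood at 67.8 to 132 FPKM with rFGF4 and 93.9 to 132 FPKM with vehicle. Slc9a3r1, Pdzk1 and Ezr, which tether cotransporters at the brush border, had log2 fold changes of 0.03 (SE 0.16), -0.09 (SE 0.28) and 0.30 (SE 0.20). Without rFGF4 mouse 1, where Ezr stood at 233 FPKM, the log2 fold change of Ezr was 0.11. Fgfr2, a receptor of FGFs singled out after its values were seen, was the 1 gene of the 5 lists whose rFGF4 values all lay below the vehicle values, at 0.968 to 1.25 FPKM against 1.27 to 1.81 FPKM, beside 0.667% of all tested genes. Fgfr1, the receptor the study follows, did not pass the threshold and stood at 9.33, 6.95, 5.69 and 4.6 FPKM in rFGF4 mice 1, 2, 3 and 5 against 4.15 to 5.67 FPKM, with a log2 fold change of 0.42 (SE 0.20). For Fgfr3 and Fgfr4 the log2 fold changes were 0.12 (SE 0.15) and 0.0031 (SE 0.14).

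None of 8 tested genes of other phosphate and pyrophosphate transport passed the threshold, and their median log2 fold change was 0.09. Slc17a1, an anion transporter of the proximal tubule, had a log2 fold change of 0.05 (SE 0.26), Slc25a3, the phosphate carrier of mitochondria, of 0.01 (SE 0.16), and Alpl, an alkaline phosphatase, of 0.22 (SE 0.16). Slc34a2, the remaining member of the Slc34 family, was looked at after its values were seen and stood at 17.3, 7.22, 2.97 and 1.40 FPKM in rFGF4 mice 1, 2, 3 and 5 and at up to 2.86 FPKM in vehicle mice 2, 3 and 4 and 8.03 FPKM in vehicle mouse 5. It was highest in rFGF4 mouse 1, where Slc34a1 and Slc34a3 were lowest.

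Genes of feedback on FGF receptor signalling held 4 of the 5 calls, from 10 tested genes, beside 1.09% of all tested genes called higher. Their median log2 fold change was 0.70, beside 0.0855 over all tested genes. The list was chosen with earlier results of these data known, so nothing is read from this count. Dusp6, a phosphatase of ERK, stood at 26.6, 32.1, 27.0 and 9.04 FPKM in rFGF4 mice 1, 2, 3 and 5 and at 8.61, 10.1, 6.70 and 9.58 FPKM in vehicle mice 2, 3, 4 and 5, with a log2 fold change of 1.22 (SE 0.36). Etv5, a transcription factor downstream of ERK, stood at 7.90, 7.39, 7.85 and 3.88 FPKM and at 3.05 to 3.28 FPKM, with a log2 fold change of 0.85 (SE 0.20) and no overlap. The inhibitors Spry4 and Spry2 had log2 fold changes of 0.81 (SE 0.31) and 0.60 (SE 0.26), and their calls were lost in 9 and 11 of 15 alternatives. The Dusp6 call was lost in 2 of 15, both on the 6 mice with shared numbers, and the Etv5 call in none. The 15 alternatives for these genes and for Gc left out array weights and the centring on proximal tubule markers. With that centring, 2 context genes were higher past the threshold. Egr1, an immediate early gene, stood at 16.1, 26.3, 24.8 and 1.36 FPKM in rFGF4 mice 1, 2, 3 and 5 and at 2.04, 1.86, 0.865 and 9.37 FPKM in vehicle mice 2, 3, 4 and 5, and did not pass, with a log2 fold change of 1.85 (SE 0.85). Spry1, another inhibitor, did not pass either, with 29.9, 12.5, 0.0801 and 4.68 FPKM against 3.97 to 11.6 FPKM. For this gene rFGF4 mouse 3 lay below all vehicle mice. The log2 fold change of Spry1 was 0.05 (SE 0.92). It ran from -0.66 without rFGF4 mouse 1 to 0.96 without rFGF4 mouse 3. For the 4 called genes the limma adjusted p was 0.918.

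The feedback genes and the vitamin D enzymes did not split the rFGF4 mice in the same way. Dusp6 and the summed feedback list were high in mice 1, 2 and 3, at 126, 115 and 87.4 FPKM for the sum, and within the vehicle range of 29.9 to 57.2 FPKM in mouse 5, at 36.1 FPKM. Cyp24a1 was highest and Cyp27b1 lowest in mice 2 and 3, and in mouse 1 a high feedback sum stood beside Cyp27b1 of 16.8 FPKM. In mouse 5 Cyp24a1 was at 23.7 FPKM with a feedback sum like that of vehicle mice. With 4 mice these are values of single animals, and no relation between the measures was tested.

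**Figure D4:**
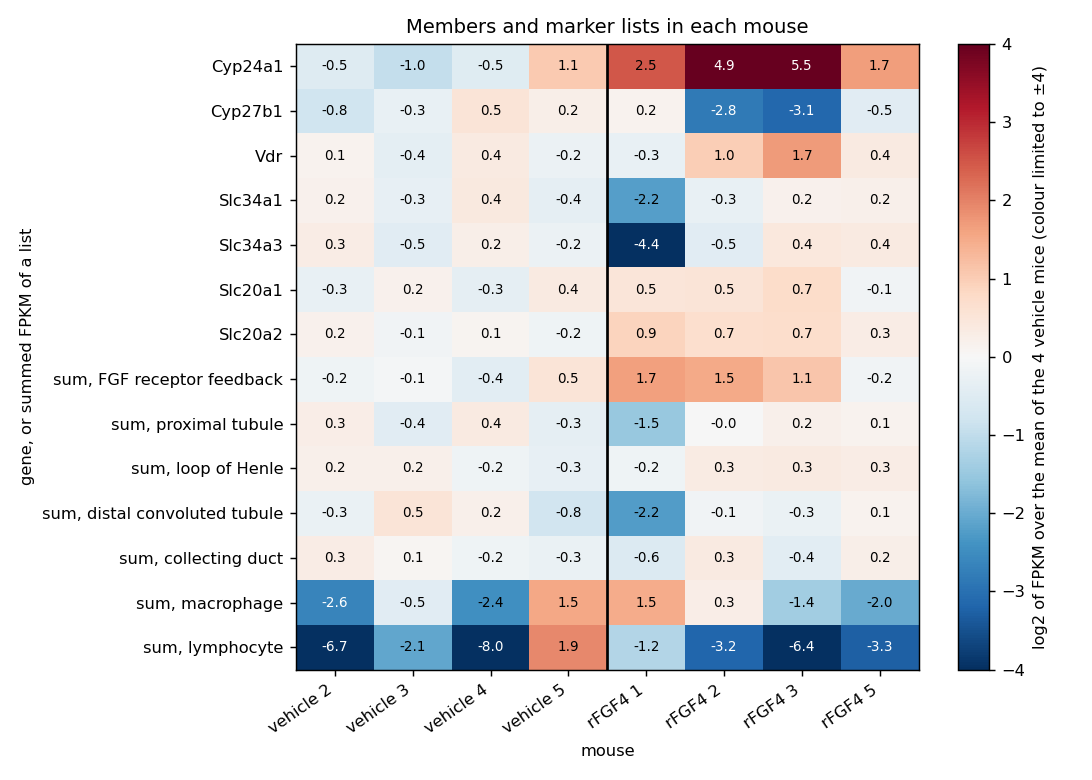
Log2 of FPKM over the mean of the 4 vehicle mice for the 7 filtered genes and for the summed FPKM of the feedback list and 6 marker lists, with 1 column per mouse, vehicle to the left of the black line and colour limited to 4 in either direction. Rows for Cyp24a1, Cyp27b1 and Vdr are most extreme in rFGF4 mice 2 and 3, those for Slc34a1, Slc34a3 and the proximal tubule in rFGF4 mouse 1, and those for macrophages and lymphocytes in several mice of both groups.

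As the map of members and marker lists shows, the marker sums moved between mice of both groups. The proximal tubule list had 1 of 12 genes lower at the threshold, beside 0.442% of all tested genes. That gene was Slc22a7, at 0.117 to 0.911 FPKM with rFGF4 and 0.393 to 1.98 FPKM with vehicle. The median log2 fold change of the list was -0.30, beside 0.0855 over all tested genes. Its sums were 855 to 2827 FPKM with rFGF4 and 1815 to 3164 FPKM with vehicle. The macrophage list had 0 of 6 genes past the threshold and a median of 0.42, with sums of 41.9 to 479 FPKM and 27.5 to 497 FPKM. In rFGF4 mice 2 and 3, the pair with the highest Cyp24a1, the proximal tubule sums were 2428 and 2827 FPKM. Their macrophage sums were 204 and 64.7 FPKM, and all 4 values lay within the vehicle ranges. The top of the macrophage range came from vehicle mouse 5. Vehicle mice 2, 3 and 4 stood at 27.5, 124 and 31.2 FPKM, below rFGF4 mouse 2. Of 5 marker genes of bone, the known source of FGF23, 0 passed the filter on low values.

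The 5 genes whose log2 level was most like that of Cyp24a1 over the 8 libraries were Frmd4b (Pearson r 0.986), Bcl2l13 (0.984), Mtss1 (0.977), Coq10b (0.973) and AU040320 (0.964). These coefficients are a description of 8 libraries searched over all tested genes whose mean reached 1 FPKM, and they carry no p. They were chosen as the highest of that search, the groups did not overlap for any of the 5, and rFGF4 mice 2 and 3 weigh on each coefficient. The differences in level were small beside that of Cyp24a1, with log2 fold changes of 0.22, 0.29, 0.30, 0.34 and 0.41. For Mtss1 the levels were 7.99, 8.70, 10.0 and 7.51 FPKM in rFGF4 mice 1, 2, 3 and 5 and 6.65, 6.33, 6.84 and 7.08 FPKM in vehicle mice 2, 3, 4 and 5.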

How the data were processed

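RNA was sequenced from the kidneys of 8 mice, 4 per group, grouped by the library names in the labels. The authors deposited 1 table of FPKM for 55401 genes in 8 libraries, with values scaled to transcript length and library size. The submitters' processing notes name HISAT2 2.0, StringTie 1.3.0, Bowtie 0.12.2 and the build mm8, without their roles. The deposited table also holds the authors' edgeR fold changes, their log2, p-values and q-values, which were not used. It holds no counts, so the counting error behind a value is unknown and no interval or detection limit was calculated. Relative depth was read from the spacing of low values. The value 0.0001, the most common in the table, was taken as 0.

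Genes with at least 0.5 FPKM in 4 or more libraries were compared as log2(FPKM + 1) with limma 3.58.1 (R 4.3.3), using a mean-variance trend, and p-values were adjusted by the Benjamini-Hochberg method. Fold changes of low genes are understated on that scale. The code was tested on simulated data. The study's threshold combines an unadjusted p below 0.05 with a ratio of 1.5 or more, or 0.67 or less. The study states random allocation of mice to groups, and p-values measure the spread between these 8 mice. The 8 genes and all lists were chosen with earlier results of these data known. Genes of the lists were named where they passed the threshold or were among the 3 with the highest mean FPKM of their list, together with Fgf23, Kl and Pth1r. Rxra, Snw1, Trpv5, Fgfr1 to Fgfr4 and Slc34a2 fall outside this rule and were named after their values were seen. The same holds for the marker genes Igkc, Trpm6, Slc22a7, Alb, Apoa2, Cyp2e1, Ttr and Serpina1a. The files hold no coordinates. Of the identifiers, 55141 (99.5%) were found in GENCODE M21, which gave positions, and promoter sequences are from RefSeq on GRCm38.p6. Alternatives covered the pseudocount (0.1), the filter, 2 scalings to a common median ratio or nuclear total, centring on proximal tubule markers, array weights, a replicate block and each mouse left out.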

Additional observations from a re-analysis of the deposited data

Results flagged for a closer look

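Of 96 groups of 4 mice examined, 8 held a mouse far from the other 3 by Dixon's ratio of gap to range, whose critical value is exceeded by chance in about 5. In rFGF4 mouse 1, Slc34a1 supplied 85.3% of the summed cotransporter FPKM against 94.9% to 96.6% in the other rFGF4 mice, a gap of 0.848 of the group's range. The share of Slc20a1 and Slc20a2 in the same mouse was 14.5% against 2.01% to 4.04%, a gap of 0.837. The log2 summed level of the proximal tubule markers in that mouse had a gap of 0.873, and that of the loop of Henle markers, at 992 FPKM against 1370 to 1422 FPKM in the other rFGF4 mice, had a gap of 0.897, with mouse 1 inside the vehicle range of 898 to 1298 FPKM and the other 3 above it. In rFGF4 mouse 5, the feedback genes Spry4, Dusp6 and Etv5 were lower than in the other 3 rFGF4 mice, with gaps of 0.894, 0.848 and 0.902 on log2(FPKM + 1). In the vehicle group, mouse 5 had the lowest summed FPKM, 481321 against 541179 to 552604, a gap of 0.84.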

How the results depend on the processing

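The sign of the log2 fold change was kept in 15 of 15 alternatives for Cyp24a1, Cyp27b1, Vdr, Slc20a1 and Slc20a2. It was kept in 12 for Slc34a1 and in 11 for Slc34a3. For Cyp24a1 and Slc20a2, whose groups did not overlap, fits on fewer mice could not change the sign. Centring on proximal tubule markers raised every fold change, so a positive sign could not change there. The members were also chosen on this contrast, so nothing is read from these counts. Relative to proximal tubule markers Slc20a2 moved to 0.86 (SE 0.63, against 0.15 as reported), on a scale where the median gene stood at 0.384. The counts over all tested genes moved more. The 165 higher and 67 lower genes past the threshold became 249 and 99 with a pseudocount of 0.1, 93 and 83 at a common median ratio, 279 and 43 at a common nuclear total, 363 and 133 with array weights, 88 and 7 relative to proximal tubule markers (added after seeing the data), and 127 to 419 and 51 to 161 when single mice were left out, the highest without rFGF4 mouse 5 (336 higher without vehicle mouse 5). Genes without overlap, 403 higher and 101 lower, became 261 and 229 at the median ratio, 771 and 51 at the nuclear total, and 509 to 1346 and 151 to 342 with single mice left out, where fewer mice make overlap rarer. The 5 higher genes of the context lists became 3 at the median ratio, 8 at the nuclear total, 2 relative to proximal tubule markers, 2 to 9 with single mice left out (2 without rFGF4 mouse 2 or vehicle mouse 4, 9 without rFGF4 mouse 5), and 2 without rFGF4 mouse 1 and vehicle mouse 5, where 1 gene was lower. Each alternative gave 0 or 1 gene at an adjusted p under 0.05. The 700 genes with an unadjusted limma p under 0.05 became 431 without rFGF4 mouse 2 and 1430 without rFGF4 mouse 5. That count was 1817 with array weights and 95 relative to proximal tubule markers. Mice that share numbers 2, 3 and 5 did not deviate together (r = -0.229, -0.155 and -0.393), so the numbers were not taken as pairs. A replicate block on these 6 libraries gave 182 higher and 82 lower genes and 1 higher context gene, against 182, 73 and 3 for the same libraries without the block. The cause of these shifts was not tested.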
